A study of Mus musculus with 12 samples.

Results

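The genes described here are the nuclear genes of oxidative phosphorylation, the respiratory chain and ATP synthase of mitochondria, in cells of mouse intra-aortic clusters. They were chosen by name, as the rows whose symbol starts with Ndufa, Ndufb, Ndufc, Ndufs, Ndufv, Uqcr, Cox4 to Cox8 or Atp5, or is Sdha, Sdhb, Sdhc or Sdhd. The choice found 92 of 24138 genes. Of these, 82 encode structural subunits, namely 36 of complex I, 4 of complex II, 8 of complex III, 19 of complex IV and 15 of complex V. The other 10 are the assembly factors Ndufaf1 to Ndufaf7, the supercomplex factor Cox7a2l, and Atp5s and Atp5sl, which carry the name of ATP synthase but are not subunits of it.

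Intra-aortic clusters are clumps of emerging blood-forming cells on the inner side of the aortic wall. RNA was sequenced from cluster cells of the aorta-gonad-mesonephros region (AGM) of C57BL/6 embryos, sorted as negative for SSEA-1 and positive for CD31 and CD117. The 4 groups, each with 3 samples, were S/G2/M cells at E11.5, G1 cells at E11.5, S/G2/M cells at E10.5 and G1 cells at E10.5. Cells in S, G2 or M phase were taken as mAG-positive from Fucci Green animals, and cells in G1 as mKO2-positive from Fucci Red animals, so cell cycle phase and reporter genotype cannot be told apart. Fucci reporters are fluorescent proteins that are broken down in a set part of the cell cycle. The sources used here do not say how many embryos entered a sample. The deposited tables hold 1 value per gene and group, in FPKM (fragments per kilobase of transcript, scaled to the mapped fragments of the library), with the authors' p-value and q-value for each pair of groups. No value per sample was analysed, so no spread between replicates can be printed and the depth behind each value is unknown. A gene was called changed where the authors' q-value, which adjusts for all genes they tested, was under 0.05.

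In oxidative phosphorylation, complexes I and II pass electrons from NADH and succinate to ubiquinone, complex III passes them on to cytochrome c, and complex IV passes them to oxygen. Complexes I, III and IV pump protons across the inner mitochondrial membrane, and ATP synthase, complex V, uses the return of those protons to make ATP. All but complex II also contain subunits encoded in mitochondrial DNA, which are not analysed here. Blood stem cells of the adult are known for a low use of this pathway, and its use rises as they divide and differentiate.

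The oxidative phosphorylation genes were among the most abundant messages of all 4 groups. Their median level was 126 FPKM in E11.5 S/G2/M, 120.3 FPKM in E11.5 G1, 136 FPKM in E10.5 S/G2/M and 129.8 FPKM in E10.5 G1 cells, over the 88 or 89 that the authors tested. The median of all tested genes was 8.92 FPKM in E11.5 S/G2/M, 9.27 FPKM in E11.5 G1, 8.15 FPKM in E10.5 S/G2/M and 8.45 FPKM in E10.5 G1 cells. Between 71.9% and 78.4% of the tested genes of the set, assembly factors and other non-subunits included, lay in the highest 10% of all tested genes, by group. The highest level belonged to Atp5b, the catalytic beta subunit of ATP synthase, at 1151 FPKM in E11.5 S/G2/M, 875 FPKM in E11.5 G1, 1197 FPKM in E10.5 S/G2/M and 1191 FPKM in E10.5 G1 cells. Next came 2 small subunits of complex IV. Cox7c had 1001, 763, 1191 and 1229 FPKM in the same order of groups, and Cox6a1 had 792, 712, 669 and 774 FPKM. The lowest were Cox8b, Cox7b2 and Cox8c, tissue isoforms of complex IV, which never exceeded 0.568 FPKM in the phase tables and which the authors did not test.

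**Figure D1:**
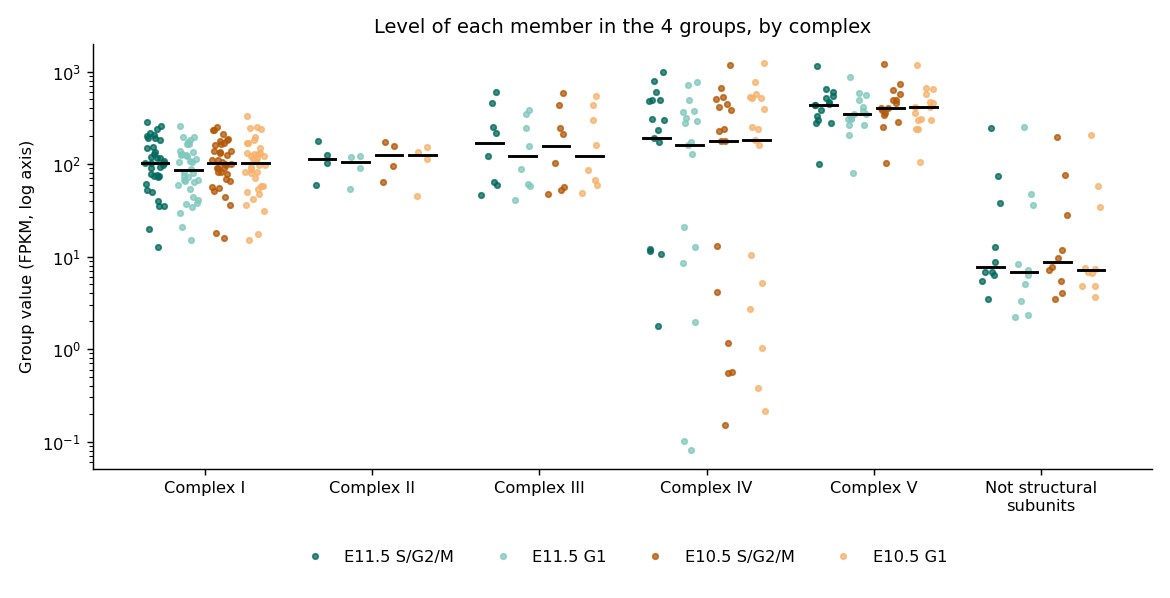
FPKM (log axis) of each of the 92 genes in the 4 groups, by complex; each point is 1 gene, bars are medians over the genes of a complex, and genes listed at 0 are not drawn. Complex V had the highest median, between 346 and 431 FPKM, and the low points of complex IV are its tissue isoforms.

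Levels differed by complex, and within a complex by role. The median of complex V was 431 FPKM in E11.5 S/G2/M, 346 FPKM in E11.5 G1, 406 FPKM in E10.5 S/G2/M and 417 FPKM in E10.5 G1 cells. That of complex I was 103 FPKM in E11.5 S/G2/M, 85.8 FPKM in E11.5 G1, 104 FPKM in E10.5 S/G2/M and 103 FPKM in E10.5 G1 cells. Within complex I, the 7 core subunits, most of which carry the flavin or iron-sulphur clusters or bind ubiquinone, had a median of 64.4 FPKM over the groups. The 29 accessory subunits, which surround the core, had a median of 103 FPKM. Their transcripts also differ in length, with a median longest coding transcript of 1623 bases for the core and 875 bases for the accessory genes. Across the 74 structural subunits that are not tissue isoforms, level and transcript length had a Spearman rho of -0.43, a description across genes that share the same libraries. FPKM is itself divided by transcript length, so length enters both values. The longest GENCODE transcript also need not be the one behind the FPKM.

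Most subunits stayed within a narrow range over the 4 groups. For the same 74 genes, the highest group value exceeded the lowest by a median factor of 1.38, and for 53 of them by no more than 1.5. Only Ndufs3, Ndufb3 and Ndufs5, all of complex I, exceeded a factor of 2. These factors join values of the phase tables of both ages, whose scaling can differ. Ndufs5, at 2.02, lay close to the limit. In the age tables it had 136.7 FPKM in E10.5 S/G2/M and 68.8 FPKM in E11.5 G1 cells, a factor just under 2. Uqcrfs1, the Rieske iron-sulphur protein of complex III, had 45.9 FPKM in E11.5 S/G2/M, 41.4 FPKM in E11.5 G1, 47.7 FPKM in E10.5 S/G2/M and 49.3 FPKM in E10.5 G1 cells.

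Between phases at E11.5, 75 of 89 tested genes were higher in S/G2/M than in G1 cells, with a median log2 ratio of 0.29, and none was called. The summed level of all the genes was 18958 FPKM in S/G2/M and 15555 FPKM in G1 cells, a ratio of 1.22. Over all 12414 genes tested, 0.701% were called, 46.0% were higher in S/G2/M cells and the median log2 ratio was -0.06. Abundant genes as a class lay higher: of tested genes that reached at least 50 FPKM in either group, 59.4% were higher in S/G2/M cells, with a median log2 ratio of 0.14, and for those with at least 100 FPKM it was 63.6% and 0.20. The 69 oxidative phosphorylation genes of at least 50 FPKM, subunits and others, had 62 higher and a median of 0.29. By complex, the median was 0.27 for complex I, 0.16 for complex II, 0.27 for complex III, 0.39 for complex IV and 0.16 for complex V, the second and last of which lie near the 0.14 of abundant genes in general. As a share of the summed FPKM of all 24138 genes listed, tested or not, the oxidative phosphorylation genes held 3.17% in S/G2/M and 2.97% in G1 cells. The S/G2/M sum includes 30196 FPKM of Snora5c, a small nucleolar RNA that was not tested and is listed at 0 in G1 cells. At an unadjusted p under 0.05, 1 of the 89 passed, against 8.27% of all tested genes.

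At E10.5 the same comparison gave no such lean. Of 88 tested genes, 48 were higher in S/G2/M than in G1 cells, the median log2 ratio was 0.03, and the sums were 18863 FPKM in S/G2/M and 18702 FPKM in G1 cells. None was called, where 0.655% of all 12984 tested genes were, and none had an unadjusted p under 0.05, where 6.69% of all genes did. The median over all tested genes was -0.04, and 0.07 over those of at least 50 FPKM. The phase comparisons at the 2 ages share no group, and of 87 genes tested in both, 41 were higher in S/G2/M cells at both ages, 33 at E11.5 alone, 7 at E10.5 alone, and 6 were lower at both. Over all 11763 genes tested at both ages, 3218 were higher at both, 2258 at E11.5 alone, 2423 at E10.5 alone, and 3864 were lower at both. Whether the directions at the 2 ages go together was not tested. Across these 87 genes, Pearson's r and Spearman's rho between the log2 ratios were both 0.26, against 0.21 and 0.25 across all 11763 genes tested at both ages. Across the 72 of at least 50 FPKM they were -0.003 and 0.12. Genes of the same libraries are not independent replicates. The difference between the ages was not tested, since the deposited tables hold no such term.

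Between ages, the direction differed with phase. In G1 cells, 27 of 88 tested genes were higher at E11.5 than at E10.5, with a median log2 ratio of -0.14 and sums of 15733 FPKM at E11.5 and 17860 FPKM at E10.5. The median of all 12953 tested genes was 0.02, and of those of at least 50 FPKM -0.07. One gene, Ndufs3, was called, where 4.45% of all tested genes were called in either direction. At an unadjusted p under 0.05, 3 of the 88 passed, against 15.4% of all genes. In S/G2/M cells, 61 of 88 were higher at E11.5, with a median log2 ratio of 0.11 and sums of 19720 FPKM at E11.5 and 18683 FPKM at E10.5. None was called or had an unadjusted p under 0.05, where 4.07% of 12768 genes were called and 13.9% had such a p. After subtraction of the median of all tested genes, the median of 0.11 in S/G2/M cells was 0.08. After subtraction of the median of tested genes of at least 50 FPKM, it was 0.09. Since the E11.5 G1 cells enter both the phase comparison at E11.5 and the age comparison in G1, low values in that group move both.

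**Figure D2:**
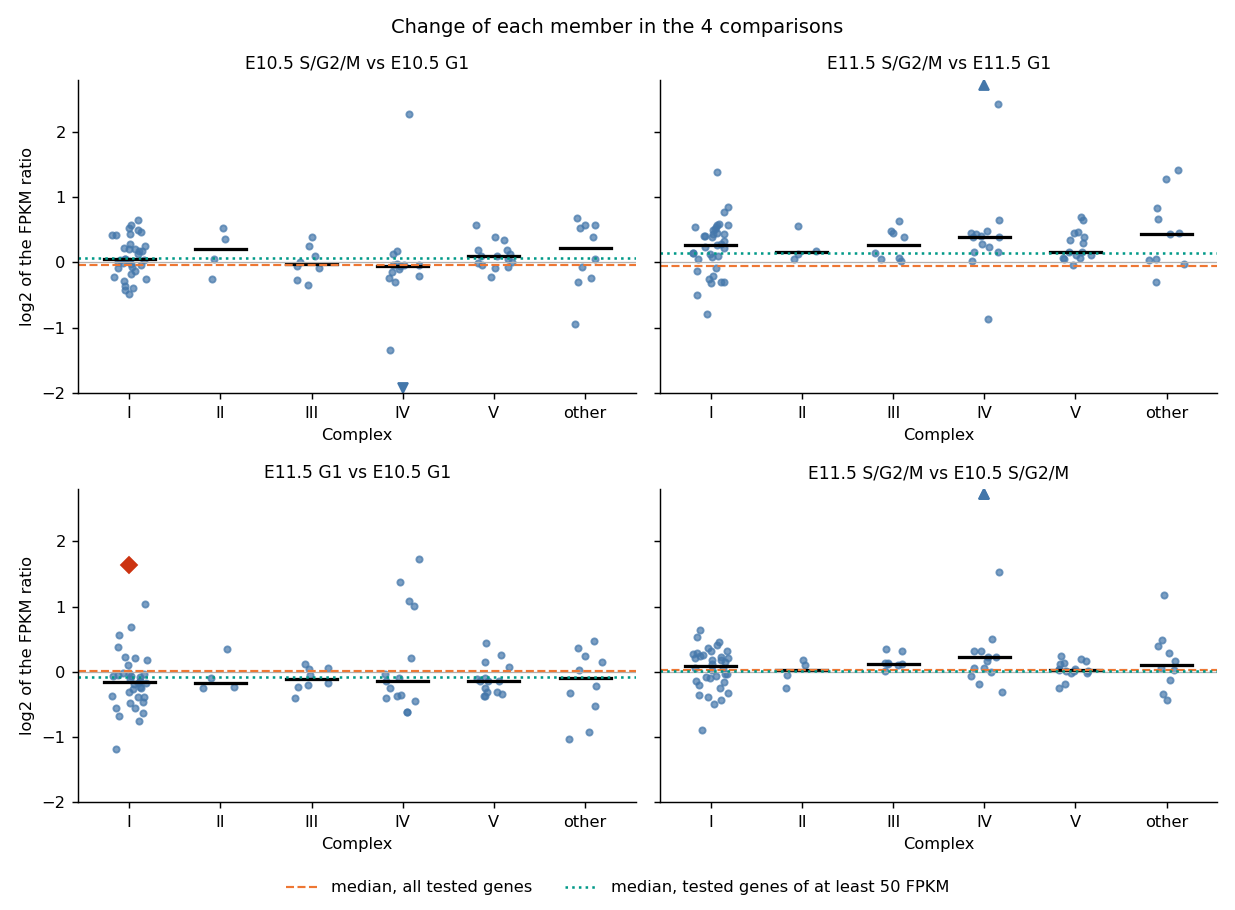
log2 ratio of FPKM for each gene in the 4 comparisons, by complex (other: the 10 genes that are not structural subunits); black bars are medians of a complex, the dashed line is the median of all tested genes, the dotted line that of tested genes of at least 50 FPKM, triangles lie beyond the axis and the red diamond is Ndufs3, the only gene called. All 5 medians of complexes I to V lie above the dashed line at E11.5 between phases and below it in G1 between ages.

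**Figure D3:**
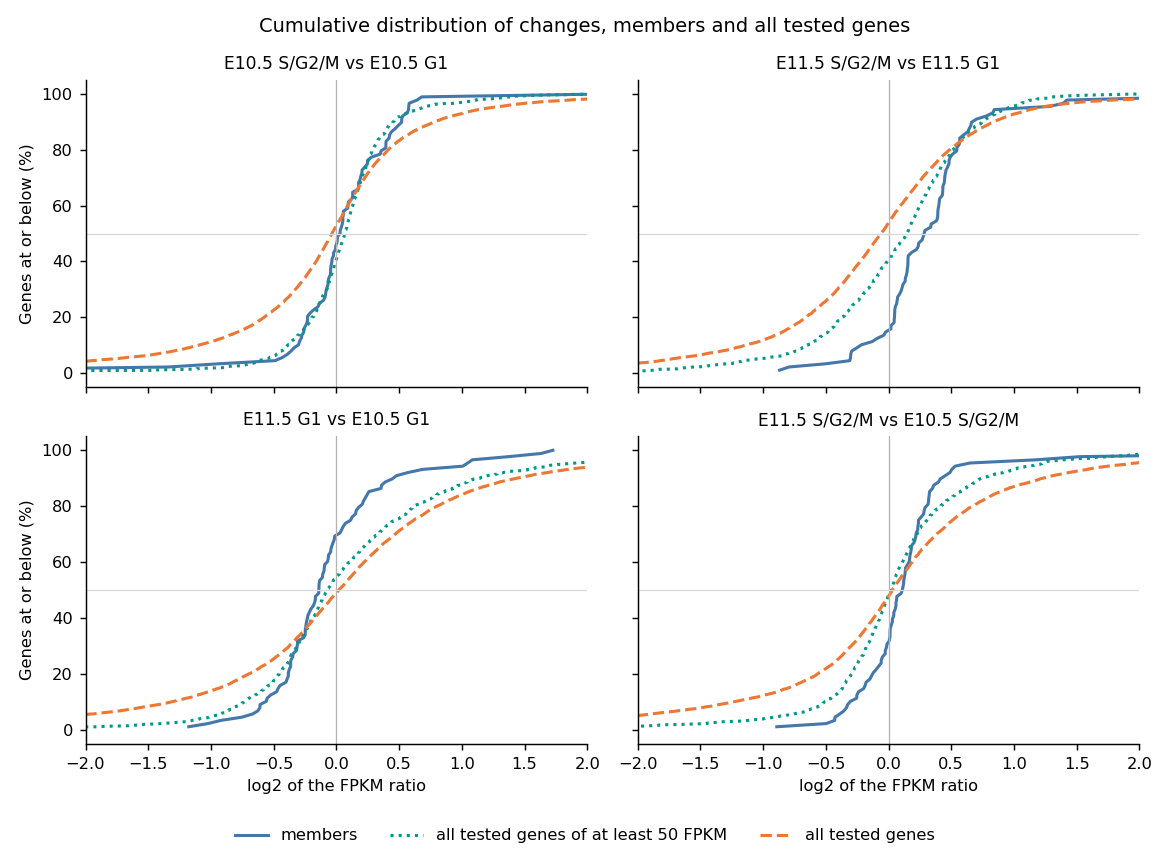
Percent of genes at or below each log2 ratio of FPKM in the 4 comparisons, for the oxidative phosphorylation genes (solid), all tested genes (dashed) and tested genes of at least 50 FPKM (dotted). At E11.5 between phases, the solid curve crosses 50% at 0.29, right of the dotted curve at 0.14 and the dashed curve at -0.06.

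The sorted cells also differed between groups in messages of other cell types, which move with these comparisons. The summed level of 19 macrophage markers was 1315 FPKM in E11.5 S/G2/M and 3597 FPKM in E11.5 G1 cells, against 368 FPKM in E10.5 S/G2/M and 555 FPKM in E10.5 G1 cells. Of these markers, 7 of 18 tested were called lower in S/G2/M than in G1 at E11.5, and 16 of 18 were called higher at E11.5 than at E10.5 in G1. Cd163 alone among them was listed at 0 in 3 of the groups, with 0.0203 FPKM in E11.5 G1 cells. Erythroid markers summed to 3161 FPKM in E11.5 S/G2/M, 12463 FPKM in E11.5 G1, 19764 FPKM in E10.5 S/G2/M and 15571 FPKM in E10.5 G1 cells, led by the embryonic globin Hba-x, with 3 of 16 called lower in S/G2/M cells at E11.5 and Tspo2 at 0 in every group. Neuronal markers summed to 217 FPKM in E11.5 S/G2/M, 323 FPKM in E11.5 G1, 213 FPKM in E10.5 S/G2/M and 891 FPKM in E10.5 G1 cells, and 9 of 18 were called lower in S/G2/M cells at E10.5. Of all tested genes, 0.655% were called between phases at E10.5, 0.701% between phases at E11.5 and 4.45% between ages in G1, in either direction. In bulk RNA, fewer cells of a type and less RNA per cell cannot be told apart, and the part of these markers in the values of the oxidative phosphorylation genes was not tested. The defining genes of the sort were present: Kit, which encodes CD117, had 28.9 FPKM in E11.5 S/G2/M, 16.9 FPKM in E11.5 G1, 12.7 FPKM in E10.5 S/G2/M and 15.1 FPKM in E10.5 G1 cells, and Pecam1, which encodes CD31, 69.9, 111, 30.2 and 39.8 FPKM in the same order. The mitotic kinase gene Plk1 was called higher in S/G2/M cells at both ages, with 95.8 FPKM in S/G2/M and 26.8 FPKM in G1 cells at E11.5 and 76.1 FPKM in S/G2/M and 17.9 FPKM in G1 cells at E10.5.

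Complex I held the single call. Ndufs3 encodes a core subunit of the arm of complex I that projects into the matrix. It lies on chromosome 2 at chr2:90894636-90904721 (mm10), on the minus strand. In the phase tables it had 60.6 FPKM in E11.5 S/G2/M, 105 FPKM in E11.5 G1, 56.1 FPKM in E10.5 S/G2/M and 35.9 FPKM in E10.5 G1 cells. The E11.5 G1 value was the highest and the E10.5 G1 value the lowest, with both S/G2/M values between them. In the authors' deposited table for G1 cells by age, Ndufs3 rose to 106 FPKM at E11.5, against 34.3 FPKM at E10.5, a log2 ratio of 1.63 with a q-value of 0.0255. Its log2 ratio between S/G2/M and G1 cells was -0.79 at E11.5, with an unadjusted p of 0.0573 and a q-value of 0.633 in the authors' deposited table. At E10.5 it was 0.64, with a p of 0.138 and a q-value of 0.899 there.

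The reads of Ndufs3 may not all be its own. In the GENCODE annotation its exons overlap 88 bases of exon of Kbtbd4, which starts on the opposite strand. The loci in the authors' tables do not overlap, since Ndufs3 ends at 90904721 and Kbtbd4 starts at 90904786. The sources used here do not say whether the counting used strand. Kbtbd4 had 8.24 FPKM at E11.5 and 16.5 FPKM at E10.5 in G1 cells, a log2 ratio of -1.01 with a q-value of 0.371 in the authors' deposited table, the opposite direction to Ndufs3. Between phases its log2 ratio was also opposite to that of Ndufs3, at 0.67 at E11.5 and -0.86 at E10.5. Between ages in S/G2/M cells both rose, Kbtbd4 at 0.50 and Ndufs3 at 0.18. Kbtbd4 was not called in any comparison. A processed pseudogene, Gm12251, matches the Ndufs3 transcript at 98.6% over 792 bases, so its reads could be assigned to either.

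In complex I, the genes that differed most between groups after Ndufs3 were accessory subunits. Ndufb3, of the membrane arm, had 107 FPKM in E11.5 S/G2/M, 40.7 FPKM in E11.5 G1, 101 FPKM in E10.5 S/G2/M and 97.2 FPKM in E10.5 G1 cells. The E11.5 G1 group thus stood alone, below the other 3. Between phases at E11.5 its log2 ratio was 1.39, with an unadjusted p of 0.0232 and a q-value of 0.455 in the authors' deposited table. Between ages in G1 cells it was -1.18, with a p of 0.0409 and a q-value of 0.292 there. Ndufa8, a cysteine-rich subunit of the intermembrane side, had 96.9 FPKM in E11.5 S/G2/M, 113 FPKM in E11.5 G1, 65.1 FPKM in E10.5 S/G2/M and 57.7 FPKM in E10.5 G1 cells. Both E11.5 values lay above both E10.5 values. Its log2 ratio between ages in G1 cells was 1.05, with a q-value of 0.231 in the authors' deposited table. Ndufs5, another accessory subunit, had 103 FPKM in E11.5 S/G2/M, 68.1 FPKM in E11.5 G1, 138 FPKM in E10.5 S/G2/M and 122 FPKM in E10.5 G1 cells. Ndufa3 had the lowest phase ratio of complex I at E10.5, with 233 FPKM in S/G2/M and 327 FPKM in G1 cells, a log2 ratio of -0.49. Ndufa6 had the lowest age ratio in S/G2/M cells, with 36.9 FPKM at E11.5 and 68.5 FPKM at E10.5, a log2 ratio of -0.89 and an unadjusted p of 0.0725.

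To show what lies in front of these genes, the 250 bases before the start of each are given 5′ to 3′ in the direction of transcription, from RefSeq on GRCm38.p6, for Ndufs3, Ndufa8 and Ndufb3 and for Sdhd of complex II. Capitals mark matches to GCGCA followed by any base and GCGC, a motif of the factor NRF1, or CCGGAAG, a motif of ETS factors such as GABP, on either strand.
Ndufs3 (chr2:90904722-90904971, minus strand): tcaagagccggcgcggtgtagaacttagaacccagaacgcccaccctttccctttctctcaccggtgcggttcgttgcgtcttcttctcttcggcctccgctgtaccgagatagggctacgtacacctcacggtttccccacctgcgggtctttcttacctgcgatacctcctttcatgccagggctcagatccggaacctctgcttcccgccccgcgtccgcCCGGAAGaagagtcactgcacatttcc
Ndufa8 (chr2:36049339-36049588, minus strand): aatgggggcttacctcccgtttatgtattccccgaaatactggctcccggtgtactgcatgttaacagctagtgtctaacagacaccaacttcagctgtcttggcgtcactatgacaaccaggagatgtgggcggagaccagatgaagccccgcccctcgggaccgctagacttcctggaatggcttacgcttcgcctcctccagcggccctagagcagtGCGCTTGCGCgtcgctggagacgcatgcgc
Ndufb3 (chr1:58586147-58586396, plus strand): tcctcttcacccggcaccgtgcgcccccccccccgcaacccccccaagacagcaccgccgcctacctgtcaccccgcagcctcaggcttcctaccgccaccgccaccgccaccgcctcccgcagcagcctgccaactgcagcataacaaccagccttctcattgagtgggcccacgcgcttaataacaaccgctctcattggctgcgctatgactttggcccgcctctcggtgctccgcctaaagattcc
Sdhd (chr9:50603850-50604099, minus strand): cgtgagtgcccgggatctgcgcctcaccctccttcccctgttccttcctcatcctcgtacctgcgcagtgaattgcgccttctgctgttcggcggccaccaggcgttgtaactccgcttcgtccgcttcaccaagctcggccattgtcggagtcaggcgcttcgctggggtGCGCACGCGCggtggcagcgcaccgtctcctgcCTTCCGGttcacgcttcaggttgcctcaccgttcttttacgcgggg
The window of Ndufs3 holds 1 ETS match, that of Ndufa8 1 NRF1 match and that of Sdhd 1 of each, while that of Ndufb3 holds neither sequence. RefSeq starts can differ from the authors' loci. The locus of Ndufb3 starts further on, at 58586599, and that of Ndufa8 ends at 36049292. Bases between these positions and the windows are not shown.

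The remaining core subunits of complex I differed in direction. Ndufs8, which carries iron-sulphur clusters, had 135 FPKM in E11.5 S/G2/M, 166 FPKM in E11.5 G1, 106 FPKM in E10.5 S/G2/M and 109 FPKM in E10.5 G1 cells. Ndufv1, which binds NADH and the flavin, had 53.0 FPKM in E11.5 S/G2/M, 29.5 FPKM in E11.5 G1, 51.2 FPKM in E10.5 S/G2/M and 49.8 FPKM in E10.5 G1 cells. Ndufs8 was thus highest, and Ndufv1 lowest, in E11.5 G1 cells. Between phases at E11.5, 3 of 7 core subunits were higher in S/G2/M cells, with a median log2 ratio of -0.09. Among the 29 accessory subunits 24 were higher, with a median of 0.34. Between ages in G1, 4 of 7 core subunits were higher at E11.5, with a median of 0.39, and 5 of 29 accessory subunits, with a median of -0.17. In S/G2/M cells between ages, 5 of 7 core and 16 of 29 accessory subunits were higher at E11.5. The difference between core and accessory subunits was not tested.

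**Figure D4:**
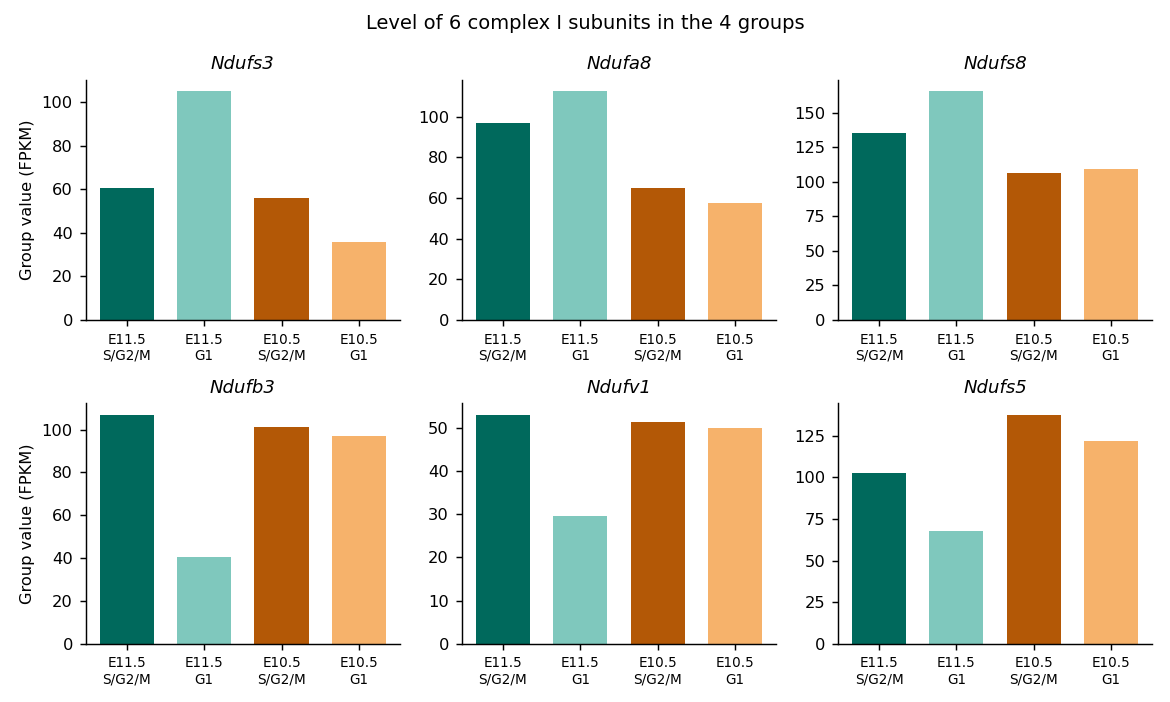
FPKM of 6 complex I subunits in the 4 groups, 1 bar for the authors' value of each group, each panel with its own axis from 0; there are no error bars because no value per sample was analysed. Ndufs3 is highest in E11.5 G1 at 105 FPKM, where Ndufb3 is lowest at 40.7 FPKM.

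Complex II consists of succinate dehydrogenase, which also takes part in the tricarboxylic acid cycle. Sdha, the flavoprotein, had 102 FPKM in E11.5 S/G2/M, 90.3 FPKM in E11.5 G1, 94.6 FPKM in E10.5 S/G2/M and 113 FPKM in E10.5 G1 cells. Sdhb, the iron-sulphur subunit, had 59.2, 54.0, 64.2 and 44.8 FPKM in that order of groups. For the membrane anchors, Sdhc had 126, 122, 158 and 152 FPKM and Sdhd 178, 120.3, 174 and 136 FPKM. All 4 were higher in S/G2/M than in G1 cells at E11.5, and 3 of 4 at E10.5, with Sdhd at a log2 ratio of 0.56 at E11.5 and 0.36 at E10.5. None had an unadjusted p under 0.05 in any comparison.

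In complex III, all 8 subunits were higher in S/G2/M than in G1 cells at E11.5, with a median log2 ratio of 0.27, and 4 of 8 were at E10.5. The largest ratio was that of Uqcr10, a small subunit near cytochrome c1, with 599 FPKM in S/G2/M and 387 FPKM in G1 cells at E11.5 and 580 FPKM in S/G2/M and 542 FPKM in G1 cells at E10.5. At E11.5 its log2 ratio was 0.63, with an unadjusted p of 0.0858. Of the core proteins, Uqcrc1 had 63.8 FPKM in E11.5 S/G2/M, 60.8 FPKM in E11.5 G1, 52.6 FPKM in E10.5 S/G2/M and 66.5 FPKM in E10.5 G1 cells, and its log2 ratio of -0.34 at E10.5 was the lowest phase ratio of the complex at that age. Uqcrc2 had 59.0 FPKM in E11.5 S/G2/M, 58.2 FPKM in E11.5 G1, 56.6 FPKM in E10.5 S/G2/M and 60.0 FPKM in E10.5 G1 cells. The highest at E10.5 was Uqcrq, a small subunit, with 209 FPKM in S/G2/M and 159 FPKM in G1 cells, a log2 ratio of 0.40. Between ages in S/G2/M cells, all 8 were higher at E11.5, with a median of 0.13, and in G1 cells 3 of 8 were.

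In complex IV, 14 of 16 tested genes were higher in S/G2/M than in G1 cells at E11.5, with a median log2 ratio of 0.39. At E10.5, 3 of 15 were, with a median of -0.06. Cox6c, a small subunit in the membrane, had 495 FPKM in S/G2/M and 317 FPKM in G1 cells at E11.5, but 418 FPKM in S/G2/M and 512.5 FPKM in G1 cells at E10.5. Cox8a, another such subunit, had 493 FPKM in S/G2/M and 376 FPKM in G1 cells at E11.5, and 444 FPKM in S/G2/M and 522 FPKM in G1 cells at E10.5. For both genes the G1 value at E11.5 was the lowest of the 4 and the G1 value at E10.5 the highest. None of these ratios passed the test, the smallest unadjusted p for the pair being 0.0898, for Cox6c between ages in G1 cells.

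Several complex IV subunits have a widespread form and a form restricted to certain tissues, and the widespread form made up most of each family in every group. Cox4i2, known from lung and induced by low oxygen, had 11.97 FPKM in E11.5 S/G2/M, 8.57 FPKM in E11.5 G1, 13.2 FPKM in E10.5 S/G2/M and 2.71 FPKM in E10.5 G1 cells, between 0.468% and 2.39% of the summed Cox4i1 and Cox4i2 level. Cox7a1, the form of heart and skeletal muscle, had 10.6 FPKM in E11.5 S/G2/M, 1.97 FPKM in E11.5 G1, 1.17 FPKM in E10.5 S/G2/M and 1.04 FPKM in E10.5 G1 cells, and so stood apart in E11.5 S/G2/M cells, at 5.73% of the summed Cox7a1 and Cox7a2 level. Its log2 ratio between phases at E11.5 was 2.43 with an unadjusted p of 0.513. Markers of muscle and heart summed to 47.8 FPKM in E11.5 S/G2/M and 70.2 FPKM in E11.5 G1 cells. Which cells the Cox7a1 message came from was not tested. Cox6b2, the form of testis, had 11.4 FPKM in E11.5 S/G2/M, 20.8 FPKM in E11.5 G1, 4.13 FPKM in E10.5 S/G2/M and 10.46 FPKM in E10.5 G1 cells, between 1.06% and 6.63% of its family. It was higher in G1 than in S/G2/M at both ages, and higher at E11.5 than at E10.5 in both phases, with unadjusted p-values between 0.231 and 0.369.

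Ndufa4, first assigned to complex I and now known as a subunit of complex IV, has a paralogue induced by low oxygen, Ndufa4l2. That gene was listed at 0 in E11.5 S/G2/M and had 12.8 FPKM in E11.5 G1, 0.556 FPKM in E10.5 S/G2/M and 5.22 FPKM in E10.5 G1 cells. Both G1 groups thus lay above both S/G2/M groups. The unadjusted p between phases was 0.12 at E11.5 and 0.379 at E10.5. Cox6a2, the form of heart and muscle, stayed at or under 1.78 FPKM in the phase tables, and in no group did Cox6a2, Cox7b2, Cox8b or Cox8c reach 1% of its family.

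**Figure D5:**
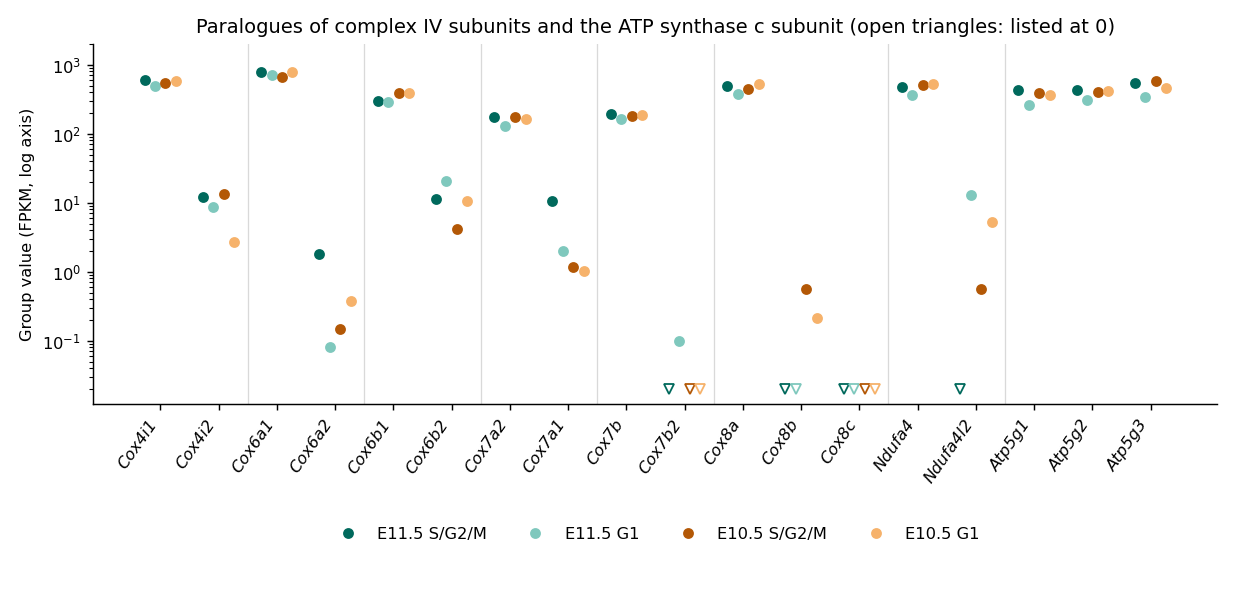
FPKM (log axis) of subunits with paralogues in the 4 groups; each point is the authors' value of 1 group, and open triangles stand for genes listed at 0. The widespread form lies well above the restricted form in each complex IV family, while the 3 Atp5g genes lie close together.

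In complex V, 14 of 15 genes were higher in S/G2/M than in G1 cells at E11.5, with a median log2 ratio of 0.16, and 10 of 15 were at E10.5, with a median of 0.09. The c subunit, whose ring turns as protons pass, is encoded by 3 genes that yield the same mature protein. Atp5g1 had 431 FPKM in E11.5 S/G2/M, 265 FPKM in E11.5 G1, 385 FPKM in E10.5 S/G2/M and 361 FPKM in E10.5 G1 cells. Atp5g2 had 431, 311, 406 and 418 FPKM in that order of groups, and Atp5g3 had 545, 346, 577 and 453 FPKM. In each of the 3, E11.5 G1 was the lowest group. Their sum was 1406 FPKM in S/G2/M and 922 FPKM in G1 cells at E11.5, and 1368 FPKM in S/G2/M and 1232 FPKM in G1 cells at E10.5. Their log2 ratios between phases at E11.5 were 0.70, 0.47 and 0.66, and the smallest unadjusted p was that of Atp5g1, at 0.0523 with a q-value of 0.612 in the authors' deposited table. The shares of the family were similar between groups: Atp5g3 held 38.7% in E11.5 S/G2/M, 37.5% in E11.5 G1, 42.2% in E10.5 S/G2/M and 36.8% in E10.5 G1 cells.

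The 5 genes of the F1 part, which contains the catalytic head, were all higher in S/G2/M cells at E11.5, with a median log2 ratio of 0.29. All 5 were lower at E11.5 than at E10.5 in G1 cells, with a median of -0.13. The 4 genes of the peripheral stalk, which holds the head still, had a median of 0.14 between phases at E11.5. In G1 cells between ages, 3 of the 4 stalk genes were higher at E11.5, with a median of 0.11. Atp5o, of the stalk, had 327 FPKM in E11.5 S/G2/M, 313 FPKM in E11.5 G1, 341 FPKM in E10.5 S/G2/M and 299 FPKM in E10.5 G1 cells. Atp5j2, in the membrane part, had the largest phase ratio of complex V at E10.5, with 355 FPKM in S/G2/M and 238 FPKM in G1 cells, a log2 ratio of 0.58 and an unadjusted p of 0.0899. At E11.5 it had 298 FPKM in S/G2/M and 305.5 FPKM in G1 cells. Atp5l, also of the membrane part, had the lowest phase ratio of complex V at E10.5, with 491 FPKM in S/G2/M and 576 FPKM in G1 cells, a log2 ratio of -0.23.

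Of the 10 genes that are not subunits, the 7 assembly factors of complex I had 6 higher in S/G2/M than in G1 cells at each age, with median log2 ratios of 0.66 at E11.5 and 0.52 at E10.5. Ndufaf2 had 74.6 FPKM in E11.5 S/G2/M, 47.2 FPKM in E11.5 G1, 76.4 FPKM in E10.5 S/G2/M and 58.1 FPKM in E10.5 G1 cells. Ndufaf5 had 5.41 FPKM in E11.5 S/G2/M, 2.22 FPKM in E11.5 G1, 7.13 FPKM in E10.5 S/G2/M and 4.77 FPKM in E10.5 G1 cells, with an unadjusted p of 0.0553 between phases at E11.5. Cox7a2l, named as a factor of supercomplexes of complexes III and IV, had 248 FPKM in E11.5 S/G2/M, 252 FPKM in E11.5 G1, 198 FPKM in E10.5 S/G2/M and 208 FPKM in E10.5 G1 cells. It was thus higher at E11.5 in both phases, without passing the test.

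Other genes of mitochondrial respiration were also mostly higher in S/G2/M cells at E11.5. So were most tested genes of at least 50 FPKM, though not most of all tested genes. Whether the lists below lean more than abundant genes in general was not tested. Of 14 further genes of electron transport and ATP export, 12 were higher in S/G2/M than in G1 cells at E11.5 and 10 at E10.5, and none was called in the 4 comparisons. Among them, Cyc1, the cytochrome c1 subunit of complex III whose symbol lies outside the name pattern, had a log2 ratio of 1.19 between phases at E11.5 with an unadjusted p of 0.0020, and Cycs, cytochrome c itself, a log2 ratio of 1.04 with a p of 0.0038. Both were picked out after their values were seen. Slc25a5, an ATP carrier of the inner membrane, had 440 FPKM in E11.5 S/G2/M, 307 FPKM in E11.5 G1, 373 FPKM in E10.5 S/G2/M and 303 FPKM in E10.5 G1 cells. Of 35 tested assembly factors outside the name pattern, 24 were higher in S/G2/M than in G1 cells at E11.5, and 20 of 34 were at E10.5. Of 21 genes of the tricarboxylic acid cycle and pyruvate dehydrogenase, 15 were higher in S/G2/M cells at E11.5 and 14 at E10.5. No gene of either list was called in any of the 4 comparisons, where between 0.655% and 4.45% of all tested genes were. Between ages in G1 cells, 5 of 14 electron transport and export genes, 16 of 35 assembly factors and 9 of 21 cycle genes were higher at E11.5. In S/G2/M cells the counts were 11 of 14, 22 of 34 and 13 of 21. Among 16 regulators of mitochondrial genes, the single call in the 4 comparisons was Epas1, in G1 cells between ages, where 4.45% of all tested genes were called. Epas1, a factor stabilised by low oxygen, had 39.0 FPKM at E11.5 and 13.2 FPKM at E10.5 in G1 cells, a log2 ratio of 1.56 and a q-value of 0.0049 in the authors' deposited table.

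The 92 genes share features that their names did not use. They lie on 19 chromosomes, with no more than 10 on any 1 and 3 on X. A start within 1000 bases of the start of a gene on the opposite strand was found for 34 of 92, or 37.0%, against 10.9% of 21951 protein-coding genes of the GENCODE annotation. The partner of Ndufs3 is Kbtbd4 at 87 bases and that of Sdhd is Timm8b at 98 bases. RefSeq promoter windows, from 250 bases before to 50 after a start, were matched for 76 of the 92 genes. Motifs were searched on both strands, and matches were counted per gene whether or not they overlap. The NRF1 motif was in the windows of 19 of the 76, or 25%, against 7.17% of protein-coding genes. The ETS motif CCGGAAG was in 22.4%, against 12.9%, and the YY1 motif AAGATGGCG in 10.53%, against 2.14%. At least 1 of these motifs was found for 38 genes, or 50%, against 20.0% of protein-coding genes, and the median GC content was 58.0% against 56.3%. Over all promoter windows, non-coding genes included, the shares were 5.19% for NRF1, 9.93% for ETS and 1.64% for YY1. A match to these letters is a description and not a bound site. The messages are short, with a median longest coding transcript of 913 bases against 2683 bases for all protein-coding genes. For 23 of the 92 an annotated pseudogene matched the transcript at 95% identity or more over at least 100 bases. In GENCODE, exons of 28 overlap those of a gene on the other strand, though the authors' loci can differ, as for Ndufs3. FPKM values of these genes may include reads of such neighbours or lose reads to them.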

How the data were processed

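The authors deposited 6 gene tables, each with 1 FPKM value per group for 2 groups and, per the file headers, a p-value and a q-value per gene. The submitters' processing notes list TopHat, Cuffdiff, CASAVA 1.4 and mm10 without saying what each did, while the labels' protocols name bowtie, another build and trimmed reads. The tables call the S/G2/M group G2. Fold changes are ratios of 2 FPKM values with no pseudocount, and no test was run on samples. A Benjamini-Hochberg adjustment of the p-values gave the deposited q-values within 5.27e-07. Each group's values differed between its tables by up to 5.24%, so log2 ratios were taken within a table. The factors between the highest and lowest of the 4 groups join values of both phase tables and carry such differences. FPKM values correct for transcript length and library total, which ties each gene to the rest of its library.

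Members and lists were chosen with earlier results of these data known. Genes named were those called, the highest and lowest ratio per complex and comparison, the 3 highest and lowest levels, paralogue families, complex II and the most abundant of other lists, and not every gene so selected is printed. Ndufs5, Ndufs8, Ndufv1, Uqcrfs1, Cox8a, Atp5o and other genes outside that rule were chosen after their values were seen. Deposited starts were printed counting from 1. Motifs, overlaps and copies used RefSeq (GRCm38.p6) and GENCODE sequences with BLAST+ 2.17.0. Scripts ran in Python 3.11.15 with matplotlib 3.10.9, pandas 2.3.3 and numpy 2.4.6, and the calculations were tested on simulated data. Alternatives were thresholds of 0.01 and 0.085, a minimum log2 ratio of 1, a minimum of 5 FPKM, a pseudocount of 1 FPKM, median scaling, structural subunits alone and tables in the other order.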

Additional observations from a re-analysis of the deposited data

How the results depend on the processing

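The count of called genes was 1 in G1 cells by age and 0 in the other 3 comparisons, and these counts held with a threshold of 0.085. A minimum log2 ratio of 1, a minimum of 5 FPKM and structural subunits alone can only remove calls. A count of 0 therefore could not change under these filters, and Ndufs3 passed each of them. At a threshold of 0.01 the call of Ndufs3 was lost, leaving 0. The median log2 ratio between phases at E11.5, 0.29, was 0.14 after scaling by tested genes of at least 50 FPKM and 0.087 after scaling by those of at least 100 FPKM, both chosen after seeing the data. Its drop follows from the construction of that scaling, which takes off the median of those genes. The median between phases at E10.5, 0.03, was -0.04 and -0.07 under these scalings, so its sign is not settled. The median between ages in G1 cells, -0.14, was -0.07 and -0.05, so that scaling shrank it by over 1.5 times. That in S/G2/M cells, 0.11, was 0.09 and 0.11, and the 4 medians moved by less than 0.1 with a pseudocount, the minimum of 5 FPKM, median scaling or structural subunits alone. In the deposited tables of the other order, Uqcrc2 at E11.5 had a log2 ratio of -0.0207 between phases, against 0.0193, and the other 52 values of named genes compared kept their direction. No row joined several genes, so leaving such rows out changed nothing. No paired analysis was possible because the tables hold no value per sample, and for the same reason leaving out each replicate was not run. Depth is unknown, so no limit for low genes such as Cox7a1 or Ndufa4l2 can be given.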
